A study of Pyrus calleryana with 9 samples.

Results

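Cysteine proteases, vacuolar-processing enzymes and aspartic proteases were followed in seeds of callery pear (Pyrus calleryana), a rootstock species whose seeds are dormant at harvest and need moist cold before they germinate. The members were all genes of the count table whose Swissprot match was named a cysteine protease or proteinase, a cathepsin, a vacuolar-processing enzyme or legumain, or an aspartic or aspartyl protease or proteinase, with inhibitors left out. This gave 184 of the 59552 genes in the table. Of these, 142 had a read in at least 1 library and 42 had none.

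The seeds came from trees of 1 garden, took up water for 24 h, and were then kept at 4 °C on wet filter paper. They were sampled at 0 d (imbibed, without cold), 20 d and 50 d of this cold stratification. RNA of seeds was sequenced in 9 libraries, replicates A, B and C of each stage, named as biological replicates. In bulk seed samples, fewer cells of a type and less RNA per cell cannot be told apart, and the time in cold cannot be told apart from the time since imbibition. Gene names are those of wild pear (P. betuleafolia).

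These enzymes cut proteins in the vacuole, the secretory system and the cell wall. Papain-like cysteine proteases are made as proenzymes with an inhibitory propeptide. Vacuolar-processing enzymes, also called legumains, are cysteine proteases that cut after asparagine. They mature seed storage globulins and other vacuolar proteins in developing seeds. Aspartic proteases work at acid pH with a pair of catalytic aspartates. The phytepsin type carries a plant-specific saposin-like insert and is mostly vacuolar, while the larger nepenthesin-like group lacks it. In germinating seeds, proteases of all these classes take part in breaking down storage protein.

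By name and domain, the members were 9 vacuolar-processing enzymes, 50 papain-like cysteine proteases, 1 cathepsin B, 2 calpains of the DEK1 type, 1 ATG4, 6 phytepsin-type aspartic proteases and 115 other aspartic proteases. These groups were set by name and compared with the Pfam domains in the table. A peptidase C13 domain was listed for 8 of the 9 vacuolar-processing enzymes. The papain domain was listed for 50 members, the inhibitory propeptide for 40 and a granulin domain, as in RD21, for 3. Among the aspartic members, 19 had the eukaryotic aspartyl protease domain, 90 had the xylanase inhibitor domains by which nepenthesin-like enzymes are annotated, and 9 had a saposin-like domain. Of those 9, 3 are named only aspartic proteinase (Chr10.g13837, Chr4.g40329 and Chr5.g05753) and are counted with the other aspartic proteases. As exceptions, 7 members matched virus polyproteins and 8 carried reverse transcriptase, integrase or gag domains. Of the 7 polyprotein matches, 6 had no read, and the 1 that was tested was not called in any comparison.

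Each library held 13893019 to 16228340 counts in genes. The oleosins, proteins of the oil bodies of seeds, had summed FPKM (fragments per kilobase of transcript, scaled to the library size) of 13009 to 24071 at 0 d, 12772 to 17581 at 20 d and 1978 to 5593 at 50 d, and legumins were present in every library. Vicilins summed to 176 to 356 at 0 d, 135 to 1014 at 20 d and 139 to 362 at 50 d. Late embryogenesis abundant proteins summed to 1587 to 2591, 950 to 1198 and 433 to 938 at these stages. Chlorophyll a-b binding proteins, taken as a marker of green tissue, summed to 37.2 to 52.1, 43.7 to 64.7 and 158 to 263. The libraries 20 d B and 50 d C stood apart from their stages in a way that followed transcript length. For genes of 3000 bp or more, the median of log2(FPKM + 1) minus the mean of the other replicates was -0.997 in 20 d B and -0.70 in 50 d C, against -0.15 to 0.59 in the other 7 libraries. For genes under 1000 bp it was 0.63 and 0.61 in these libraries, against -0.38 to 0.33. The tested members had transcripts of 342 to 7151 bp with a median of 1745 bp, and 6 of them reached 3000 bp. Over the members the same measure was -0.08 in 20 d B and -0.16 in 50 d C, and -0.08 to 0.09 in the others.

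The members took a larger part of the transcriptome in the cold-treated seeds. They held 0.267, 0.295 and 0.345% of all counts in the 3 libraries at 0 d, 0.558, 0.439 and 0.537% at 20 d, and 0.571, 0.581 and 0.462% at 50 d. All 6 cold-treated libraries were above all 3 libraries of 0 d, and the 20 d and 50 d values overlapped. Summed over all libraries, the 3 most expressed members held 43.5% of the summed member FPKM and the 10 most expressed held 67.4%. These leading genes were the RD19D papain-like protease Chr7.g32797 with a mean of 694 FPKM over all libraries, cathepsin B Chr17.g27819 with 214 FPKM and the ASPG1 aspartic protease Chr14.g50303 with 212 FPKM.

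Changes between stages came from edgeR's quasi-likelihood test on the counts, and p values took a Benjamini-Hochberg adjustment over the 28339 genes left by the low-count filter. All adjusted p values given here are from this test. A gene was called higher or lower where the adjusted p was at most 0.01, the log2 fold change was at least 1 in either direction and either stage reached a mean FPKM of 1. Called without a tool named means called by edgeR. Log2 fold changes are the later over the earlier stage, with standard errors (SE). Of the 184 members, 92 were tested, and 50 had reads but too few to test. The filter keeps a gene that is high at only 1 stage, so counts among the tested members are not counts of all members. Unadjusted p values below 0.05 were found for 51.8% of all tested genes at 50 d against 0 d and for 66 of the 92 members. The replicates of these stages did not overlap in 55.6% of all genes and in 70 members.

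At 20 d compared with 0 d, 26 of the 92 tested members were called, 28.3%, where 12.4% of all tested genes were called. Of these, 22 were higher at 20 d, where 7.88% of all tested genes were called higher, and 4 were lower, where 4.52% were. The members' median log2 fold change was 0.65, and that of all tested genes was 0.15. At 50 d compared with 20 d, 5 members were called, 5.43% against 1.66% of all tested genes, and these 5 were all higher at 50 d, where 1.40% of all genes were called higher and 0.254% lower. None was called lower, although 12 had a negative value with an unadjusted p below 0.05 in edgeR and DESeq2 called 14 members, 3 of them lower. The medians were 0.06 for the members and -0.06 for all genes. At 50 d compared with 0 d, 39 members were called, 42.4% against 26.6% of all tested genes, with 34 higher and 5 lower at 50 d, where 15.6% and 11.0% of all tested genes were. Here the medians were 1.06 and 0.16. For 3 tested members without a read at 0 d the fitted fold change is no bound, and with their lower bounds in its place the medians of 0.65 and 1.06 were the same.

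The gap to the other genes in the comparisons with 0 d was smaller without the libraries that followed transcript length. With 20 d B and 50 d C both left out, an alternative chosen after seeing the data, 37.5% of the tested members and 33.9% of all tested genes were called at 20 d against 0 d. At 50 d against 0 d these shares were 49.0 and 41.6%, and at 50 d against 20 d they were 7.29 and 3.10%. The lower calls numbered 9 at 20 d and 9 at 50 d in this fit, against 4 and 5 with all libraries. Leaving out 20 d B alone gave 30 calls at 20 d against 0 d, 30.6% of the tested members beside 23.7% of all genes. Member calls depended on single libraries of 0 d as well, with 14 at 20 d and 26 at 50 d without 0 d C. These were 14.4% of the tested members beside 4.21% of all genes at 20 d, and 26.8% beside 16.7% at 50 d.

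**Figure D1:**
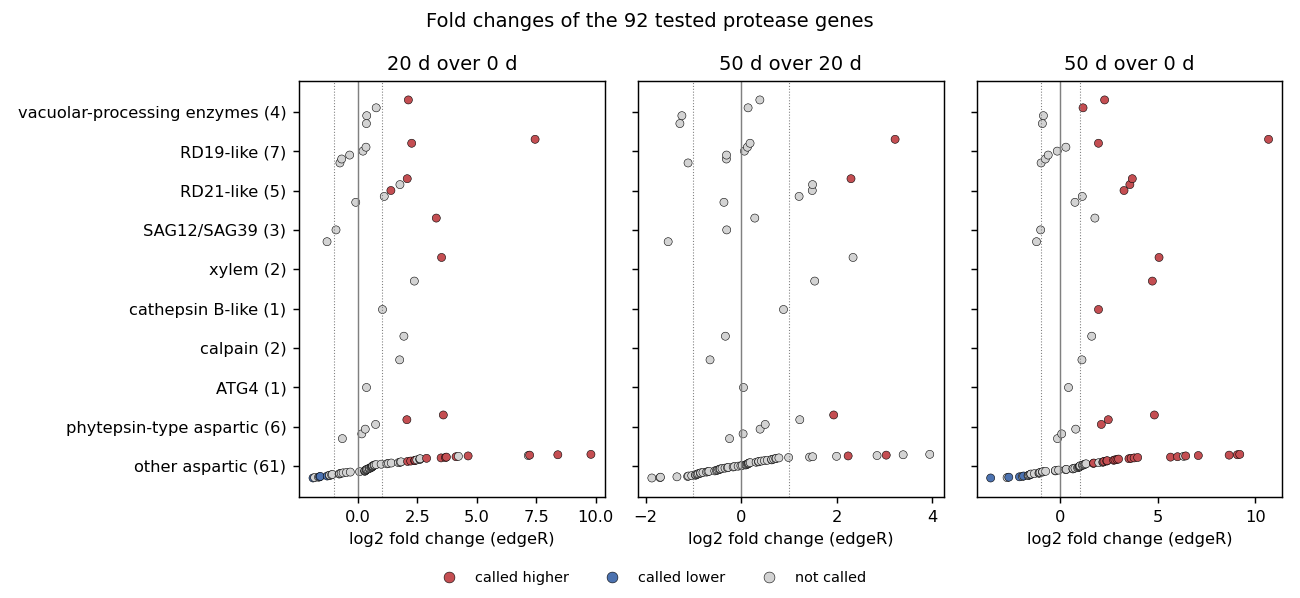
Log2 fold changes from edgeR of the 92 tested members at 20 d over 0 d, 50 d over 20 d and 50 d over 0 d, in rows by group with the number tested in brackets. Each point is a gene, red where it was called higher at the later stage, blue where it was called lower and grey where it was not called. Dotted lines mark a log2 fold change of 1 in either direction. The 5 blue points at 50 d over 0 d all lie among the other aspartic proteases.

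With edgeR, called falls were found among the aspartic members alone. Of 25 tested cysteine members, 7 were called higher at 20 d than at 0 d, 2 higher at 50 d than at 20 d and 10 higher at 50 d than at 0 d, and none was called lower in these comparisons. Negative values with an unadjusted p below 0.05 in edgeR were found for 2, 4 and 5 of them, and DESeq2 called 0, 2 and 1 of them lower. Of 67 tested aspartic members, 15 were called higher and 4 lower at 20 d against 0 d, 3 higher at 50 d against 20 d, and 24 higher and 5 lower at 50 d against 0 d. Called higher in these comparisons were 7.88, 1.40 and 15.6% of all tested genes, and called lower were 4.52, 0.254 and 11.0%. Whether the classes differ was not tested. By pattern over time, 18 members were called higher at both 20 d and 50 d than at 0 d with no call between 20 and 50 d, and 12 were called higher only in the comparison of 50 d with 0 d. Calls in all 3 comparisons, higher each time, were made for the RD19C gene Chr8.g53720 and the RD21C gene Chr2.g42662. No call in any comparison was made for 49 of the 92. The 43 called in at least 1 comparison were 46.7% of the tested members, beside 27.8% of all tested genes.

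Of the vacuolar-processing enzymes, 4 carried nearly all the reads, and they fell into a pair that was higher at 50 d and a pair that was lowest at 50 d. Chr15.g04386 (chromosome 15, 3688189 to 3691860, plus strand) had 13.7, 20.0 and 22.4 FPKM at 0 d, 80.2, 65.7 and 85.8 FPKM at 20 d and 99.4, 90.9 and 69.0 FPKM at 50 d. All cold-treated libraries lay above those of 0 d. Its log2 fold change was 2.12 (SE 0.31, adjusted p = 0.00097) at 20 d and 2.27 (SE 0.31, adjusted p = 0.000226) at 50 d over 0 d, and both calls held with each library left out in turn. Chr8.g54239 (chromosome 8, 4552688 to 4556391, plus strand) had 36.5, 33.5 and 43.6 FPKM at 0 d, 60.7, 62.2 and 60.1 FPKM at 20 d and 75.0, 94.4 and 74.1 FPKM at 50 d. The 3 stages did not overlap. It was called higher at 50 d than at 0 d, by 1.16 on the log2 scale (SE 0.26, adjusted p = 0.00434). That call was lost without 0 d A, 0 d B, 0 d C, 50 d A or 50 d B, with an adjusted p of up to 0.0254.

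The second pair lies on chromosome 4 and was not called by edgeR in any comparison, while DESeq2 called both genes lower at 50 d than at 20 d. Chr4.g39034 (8408744 to 8415326, plus strand) had 42.6, 44.1 and 87.7 FPKM at 0 d, 79.9, 62.1 and 69.3 FPKM at 20 d and 24.6, 36.3 and 27.2 FPKM at 50 d. Chr4.g39244 (11307436 to 11314644, minus strand) had 46.3, 40.1 and 67.9 FPKM at 0 d, 58.0, 57.9 and 72.5 FPKM at 20 d and 24.6, 28.1 and 28.2 FPKM at 50 d. In both genes each 50 d library was below each library of 0 d and 20 d. Their log2 fold changes at 50 d over 20 d were -1.28 (SE 0.34, adjusted p = 0.0512) and -1.24 (SE 0.29, adjusted p = 0.0288), which did not pass the limit of 0.01. At 0 d this pair had more FPKM than the other in each of the 3 libraries. At 50 d Chr15.g04386 and Chr8.g54239 were above both genes of chromosome 4 in every library.

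The other 5 vacuolar-processing enzymes were close to silent. None passed 0.230 FPKM in a library, and Chr4.g38313 had no read at all. They include a run of 3 genes on chromosome 4 between 1878517 and 1924514, and the gene matched to the alpha-isozyme, Chr17.g27598, which had 1 read at 50 d and none at 0 or 20 d.

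**Figure D2:**
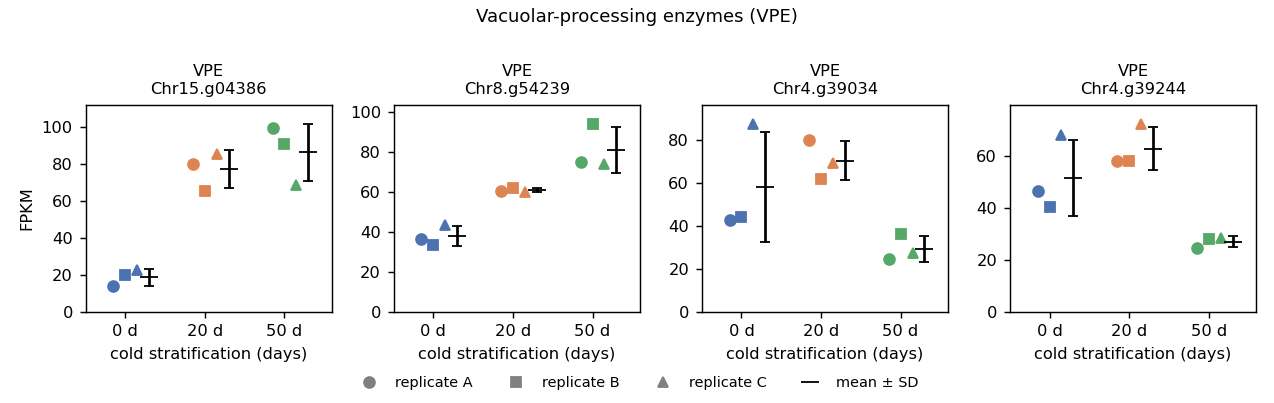
FPKM of the 4 expressed vacuolar-processing enzymes by days of cold stratification. Circles, squares and triangles are replicates A, B and C, and black bars are the mean and SD of the 3 replicates. Chr15.g04386 and Chr8.g54239 are highest at 50 d on average, and the genes on chromosome 4 are lowest there.

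Among the papain-like proteases, 3 of the 5 tested genes of the RD21 type were called higher at 50 d than at 0 d, where 15.6% of all tested genes were. RD21 enzymes are vacuolar proteases first found as dehydration-responsive genes in Arabidopsis. Chr15.g02235 (RD21C) had 13.4, 16.6 and 22.8 FPKM at 0 d, 69.7, 73.9 and 66.5 FPKM at 20 d and 228, 203 and 167 FPKM at 50 d. Its log2 fold change was 2.07 (SE 0.30, adjusted p = 0.000968) at 20 d and 3.57 (SE 0.32, adjusted p = 2.35e-05) at 50 d over 0 d, and no library left out ended either call. At 50 d over 20 d the value was 1.49 (SE 0.30, adjusted p = 0.0139), just outside the limit, while DESeq2 called it higher. No library of 1 stage overlapped with those of another.

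The other expressed RD21C gene, Chr2.g42662, had 16.3, 12.97 and 18.9 FPKM at 0 d, 49.7, 43.7 and 25.5 FPKM at 20 d and 183, 234 and 177 FPKM at 50 d. The gap was widest between 20 and 50 d, where no values overlapped. Its log2 fold change at 50 d over 0 d was 3.69 (SE 0.35, adjusted p = 3.1e-05) and held with each library left out. At 50 d over 20 d it was 2.30 (SE 0.33, adjusted p = 0.00345), a call lost without 20 d A, 20 d C or 50 d B (adjusted p up to 0.0194) and when only these stages were fitted. At 20 d over 0 d it was 1.39 (SE 0.32, adjusted p = 0.00914), and this call held in 1 of the 9 leave-outs, the one without 20 d C, with an adjusted p of up to 0.0433 in the others. RD21B Chr8.g54448 had 0.575, 1.12 and 1.16 FPKM at 0 d, 5.30, 2.12 and 1.88 FPKM at 20 d and 8.60, 12.03 and 5.90 FPKM at 50 d. It was called higher at 50 d than at 0 d, by 3.27 (SE 0.52, adjusted p = 0.000494). The RD21A match Chr15.g04224, named here after its values were seen, averaged 23.0, 20.4 and 48.0 FPKM at 0, 20 and 50 d and was not called by edgeR (1.12 at 50 d over 0 d, adjusted p = 0.0155), while DESeq2 called it higher at 50 d than at 0 d and 20 d.

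The RD19 group, relatives that are also named for dehydration, was split. Its most expressed member was RD19D Chr7.g32797, with 660, 493 and 1114 FPKM at 0 d, 825, 1112 and 766 FPKM at 20 d and 389, 361 and 524 FPKM at 50 d. The 0 d and 20 d libraries were mixed and 0 d B lay below the highest 50 d library, and no comparison was called (-1.11 at 50 d over 20 d, adjusted p = 0.111). RD19A Chr10.g16702 stayed in a range of 42.9 to 79.5 FPKM over the 9 libraries. Of the 4 tested RD19A genes, none was called by edgeR, and 1 had a positive value at 50 d over 0 d. Their median there was -0.39, and 2 had a negative value with an unadjusted p below 0.05. DESeq2 called RD19A Chr5.g08935, given here after its values were seen, lower at 50 d than at 0 d (-1.06). Both RD19C genes rose. Chr15.g04776 had 2.67, 2.24 and 3.87 FPKM at 0 d, 11.9, 13.3 and 14.7 FPKM at 20 d and 9.44, 13.4 and 9.73 FPKM at 50 d, called higher at 20 d by 2.26 (SE 0.33, adjusted p = 0.000945) and at 50 d by 1.95 (SE 0.33, adjusted p = 0.000702) over 0 d.

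RD19C Chr8.g53720 had no read in the 0 d libraries. It had 0.622, 1.64 and 1.16 FPKM at 20 d and 12.4, 10.9 and 9.18 FPKM at 50 d, from 62 and 677 reads. Against a floor of 3 reads over the libraries of a stage, it was at least 20.4-fold higher at 20 d and at least 198-fold higher at 50 d than at 0 d. Such a bound puts the floor in place of 0 reads and leaves out the counting error of the stage with reads. The intervals given below cover counting error only. Neither covers the spread between replicates. The step between the cold-treated stages was 3.23 (SE 0.46, adjusted p = 0.00485), a call lost without 20 d A, 20 d C, 50 d A or 50 d B (adjusted p up to 0.0271). The call at 20 d over 0 d needed 20 d B, since the mean of the other 20 d libraries is under 1 FPKM.

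Cathepsin B, a papain-family protease of the lysosome in animals and of the vacuole and apoplast in plants, was the second most expressed member. Chr17.g27819 had 106, 91.1 and 98.6 FPKM at 0 d, 212, 192 and 165 FPKM at 20 d and 339, 373 and 351 FPKM at 50 d. Its replicates were close together and the stages did not overlap. It was called at 50 d over 0 d, by 1.91 (SE 0.28, adjusted p = 0.000297), with each library left out as well. The values at 20 d over 0 d (1.02, SE 0.27, adjusted p = 0.0159) and at 50 d over 20 d (0.88, SE 0.27, adjusted p = 0.0839) were not called.

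The XCP1 genes were low in all stages. XCP1 is a papain-like protease of the xylem in Arabidopsis, where it degrades the contents of dying vessel cells. Chr10.g15640 had 0.283, 0.0434 and 0.154 FPKM at 0 d, 1.83, 1.56 and 1.77 FPKM at 20 d and 4.22, 5.86 and 5.19 FPKM at 50 d. The stages did not overlap, and it was called higher at 20 d (3.52, SE 0.55, adjusted p = 0.00131) and at 50 d (5.06, SE 0.56, adjusted p = 6.31e-05) than at 0 d. The 20 d call was lost without 0 d C, with an adjusted p of 0.0103. Chr5.g07719 had 0.328, 0.0629 and 0 FPKM at 0 d, 1.23, 0.146 and 0.527 FPKM at 20 d and 2.34, 4.70 and 2.91 FPKM at 50 d, called at 50 d over 0 d (4.72, SE 0.95, adjusted p = 0.0022). Without 0 d B or 0 d C that call was lost, with an adjusted p of up to 0.0149.

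The SAG12 and SAG39 matches, named for leaf senescence in Arabidopsis and rice, were the largest papain-like group. Of 30, 12 had no read and 3 were tested, and none of the other 27 passed 1.08 FPKM in a library. The highest, SAG39 Chr10.g14314, had 1.45, 0.835 and 0.328 FPKM at 0 d, 4.61, 13.8 and 5.83 FPKM at 20 d and 0.974, 5.56 and 1.97 FPKM at 50 d. It was called higher at 20 d than at 0 d (3.30, SE 0.73, adjusted p = 0.00734), a call lost without 0 d A, 0 d B, 0 d C, 20 d A or 20 d C (adjusted p up to 0.0403). It was the 1 papain-like member called at 20 d over 0 d whose 50 d value was not called as well. SAG39 Contig19.g58809 averaged 1.25, 0.613 and 0.498 FPKM at 0, 20 and 50 d and was not called. A run of 6 SAG39 genes lies on chromosome 16 between 18725211 and 18811635.

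Vignain and the KDEL-tailed endopeptidases, which break down storage protein in germinating legume seeds and the contents of dying cells in other tissues, were near 0. Of vignain Chr16.g30492 there were no reads at 0 d, 1, 0 and 3 reads at 20 d and 6, 2 and 9 reads at 50 d. Against the floor of 3 reads it was at least 4.97-fold higher at 50 d than at 0 d, with at most 1.19 FPKM in a library. It was too low to test. The KDEL-tailed CEP1 match Chr10.g14332 had 4 reads at 0 d, 1 at 20 d and 0 at 50 d, and was not tested either. Chr17.g25370, the 1 papain-like member outside the subgroups, had at most 0.407 FPKM in a library and was not tested.

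**Figure D3:**
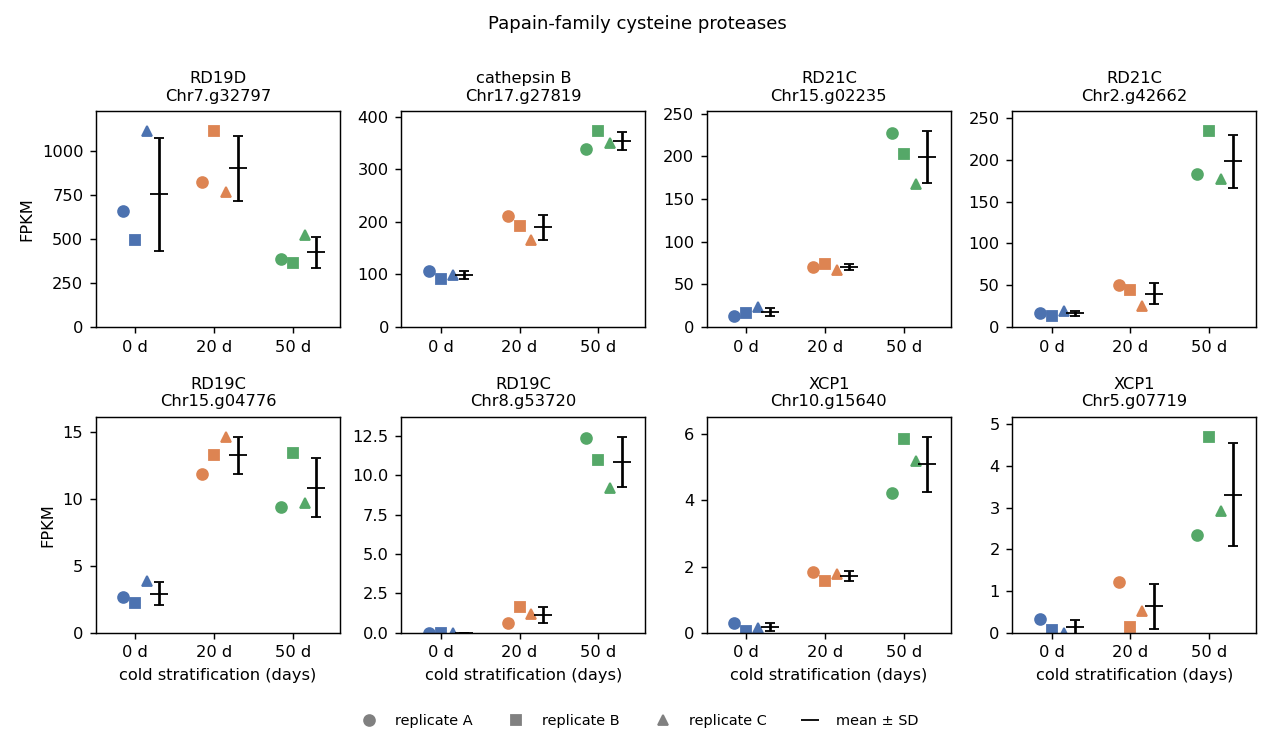
FPKM of 8 papain-family proteases by days of cold stratification. Circles, squares and triangles are replicates A, B and C, and black bars are the mean and SD of the 3 replicates, with a vertical scale of its own for each gene. Cathepsin B, RD21C, RD19C and XCP1 genes are lowest at 0 d, while RD19D has its lowest mean at 50 d.

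Both DEK1 genes, membrane-bound calpains needed for epidermis formation in maize and Arabidopsis embryos, had their lowest cold-stage values in 20 d B and 50 d C. Chr3.g20835 had 2.28, 2.61 and 1.52 FPKM at 0 d, 12.1, 1.64 and 9.55 FPKM at 20 d and 9.46, 7.63 and 1.47 FPKM at 50 d. Chr11.g09691 had 1.55, 2.90 and 1.31 FPKM at 0 d, 10.5, 0.867 and 7.24 FPKM at 20 d and 6.52, 4.65 and 0.672 FPKM at 50 d. In both genes 20 d B and 50 d C lay with the 0 d libraries or below them, and their transcripts of 7151 and 6483 bp are the longest of the tested members. Neither was called. The part of transcript length in these values was not tested. ATG4 Chr7.g34833, which processes the autophagy protein ATG8, had 27.6 to 47.0 FPKM in all libraries and was not called.

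Of the 6 phytepsin-type aspartic proteases, 2 were called higher at 20 d and 3 at 50 d than at 0 d, and the most expressed one was not called. In the same comparisons 7.88 and 15.6% of all tested genes were called higher. The A1 match Chr11.g12312 was the highest at 0 d, with 115, 148 and 123 FPKM there, 185, 87.8 and 182 FPKM at 20 d and 141, 123 and 124 FPKM at 50 d. Its stages overlapped and it was not called. A1 match Chr9.g46411 had 17.6, 19.4 and 19.5 FPKM at 0 d, 88.8, 49.3 and 85.1 FPKM at 20 d and 109, 99.4 and 89.5 FPKM at 50 d, with log2 fold changes over 0 d of 2.06 (SE 0.31, adjusted p = 0.00102) and 2.46 (SE 0.31, adjusted p = 0.000129). A1 match Chr17.g25591 had 3.69, 3.94 and 2.31 FPKM at 0 d, 51.4, 19.0 and 43.6 FPKM at 20 d and 94.7, 98.7 and 76.5 FPKM at 50 d, with 3.59 (SE 0.42, adjusted p = 0.000305) and 4.82 (SE 0.44, adjusted p = 2.56e-05). Those calls held with each library left out, and in both genes 20 d B was the lowest of the cold-treated libraries. At 50 d the means of these 3 A1 matches lay between 90.0 and 129 FPKM, and at 0 d they lay between 3.31 and 129 FPKM.

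The oryzasin-1 match Chr13.g23266, named after a rice enzyme of this type, differed little between 0 and 20 d (0.16 on the log2 scale, adjusted p = 0.745). It had 2.20, 3.04 and 3.05 FPKM at 0 d, 2.69, 3.82 and 2.28 FPKM at 20 d and 10.2, 9.55 and 14.6 FPKM at 50 d. The 50 d libraries were above all others, by 1.94 over 20 d (SE 0.34, adjusted p = 0.00791) and by 2.10 over 0 d (SE 0.35, adjusted p = 0.000633). The call over 20 d held in 1 of the 9 leave-outs, the one without 20 d B, and the adjusted p reached 0.0505 in the others. The call over 0 d held in all. Of the 9 members with a saposin-like domain, 2 were called higher at 20 d than at 0 d, 5 were called higher at 50 d than at 0 d, and 0 were called lower in those comparisons by edgeR or DESeq2, nor had any a negative value with an unadjusted p below 0.05. By edgeR, 7.88 and 15.6% of all tested genes were called higher there, and 4.52 and 11.0% lower.

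Among the other aspartic proteases, the largest amount of transcript was added by ASPG1 Chr14.g50303. ASPG1 is named in Arabidopsis for guard cells, where it acts in drought avoidance. It had 23.9, 16.8 and 24.3 FPKM at 0 d, 378, 275 and 421 FPKM at 20 d and 239, 319 and 212 FPKM at 50 d. The 0 d libraries were far below all others, and 20 d and 50 d overlapped. The log2 fold change over 0 d was 4.13 (SE 0.35, adjusted p = 9.06e-05) at 20 d and 3.63 (SE 0.35, adjusted p = 3.03e-05) at 50 d, and both calls held with each library left out. A second ASPG1 match, Chr6.g50999, named after its values were seen, had 1.73, 0.469 and 1.61 FPKM at 0 d, 17.9, 9.90 and 19.4 FPKM at 20 d and 8.48, 11.5 and 5.11 FPKM at 50 d. It was called higher at 20 d (3.72, adjusted p = 0.000812) and at 50 d (2.80, adjusted p = 0.00119) than at 0 d.

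Among the 5 AED3 matches, 3 were almost without reads at 0 d. AED3 is an apoplastic aspartic protease linked to systemic immunity in Arabidopsis. Chr2.g43837 had 0.281, 0 and 0 FPKM at 0 d, 13.8, 7.59 and 16.7 FPKM at 20 d and 49.3, 35.4 and 19.1 FPKM at 50 d, with fitted log2 fold changes over 0 d of 7.22 (SE 0.87, adjusted p = 0.000368) and 8.66 (SE 0.89, adjusted p = 4.36e-05). All 6 of its 0 d reads were in 0 d A, and leaving out a library moved these values to between 6.56 and 11.40 at 20 d and between 8.02 and 12.88 at 50 d. Chr7.g34482 had 1 read in all 0 d libraries, 7.91, 3.88 and 6.01 FPKM at 20 d and 18.1, 7.52 and 5.43 FPKM at 50 d. The ratio to 0 d was 465 at 20 d (95% counting interval 83.1 to 18420) and 837 at 50 d (149.8 to 33090). Chr15.g00655 had no read at 0 d, 3.51, 3.71 and 5.11 FPKM at 20 d and 3.82, 1.77 and 1.93 FPKM at 50 d. It was at least 106-fold higher at 20 d and at least 66.3-fold higher at 50 d. Of the 5 AED3 matches, these 3 were called higher at 20 d and at 50 d than at 0 d, also with each library left out. With all libraries, 7.88 and 15.6% of all tested genes were called higher. Another match, Chr8.g55787, averaged 2.47, 0.662 and 0.358 FPKM at 0, 20 and 50 d and was not called by edgeR, while DESeq2 called it lower at 50 d than at 0 d.

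Further genes were called higher in the cold with a wide spread among replicates. Chr6.g52767, the match to At4g16563, had 3.66, 6.62 and 4.35 FPKM at 0 d, 54.0, 27.8 and 76.1 FPKM at 20 d and 24.1, 33.7 and 15.4 FPKM at 50 d. It was called higher at 20 d (3.50, SE 0.47, adjusted p = 0.000625) and at 50 d (2.38, SE 0.45, adjusted p = 0.00141) than at 0 d, and the 50 d call was lost without 0 d A or 0 d C (adjusted p up to 0.014). Beside 7.88% of all tested genes called higher at 20 d over 0 d, aspartyl protease family protein 2 gave 4 higher calls among 6 tested genes. The highest of these, Chr7.g33031, had 8.78, 5.05 and 6.67 FPKM at 0 d, 44.7, 13.9 and 43.9 FPKM at 20 d and 39.1, 45.3 and 18.3 FPKM at 50 d. Its log2 fold change was 2.40 at both 20 d (SE 0.49, adjusted p = 0.00492) and 50 d (SE 0.49, adjusted p = 0.00239) over 0 d. Without 0 d A, 0 d B, 0 d C, 20 d A or 20 d C the 20 d call was lost (adjusted p up to 0.0327), and without 0 d A, 0 d B, 0 d C or 50 d B the 50 d call was (up to 0.0177). Of the same name, Chr16.g31023, named after its values were seen, had 0.875, 0.633 and 0.373 FPKM at 0 d, 15.6, 10.3 and 18.6 FPKM at 20 d and 9.41, 13.3 and 5.40 FPKM at 50 d. Its calls at 20 d (4.64, adjusted p = 0.000201) and 50 d (3.97, adjusted p = 9.76e-05) over 0 d held in every leave-out.

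The 11 matches to At5g10770 were mostly in chromosomal runs and mostly too low to test. A run of 5 lies on chromosome 15 between 2593990 and 2632937, and 4 more lie with 2 AED1 matches on chromosome 8 between 3203145 and 3274126. Only 4 of the 11 were tested, and 3 of these were called higher at 20 d and 4 higher at 50 d than at 0 d. Called higher among all tested genes were 7.88 and 15.6%. Within the run on chromosome 15, 2 genes were called and the other 3 averaged at most 0.234 FPKM at any stage. The highest, Chr15.g04531, named after its values were seen, had 2.10, 1.45 and 1.71 FPKM at 0 d, 5.85, 6.11 and 9.16 FPKM at 20 d and 11.7, 7.58 and 4.25 FPKM at 50 d. It was called at 20 d (2.09, adjusted p = 0.00421) and 50 d (2.24, adjusted p = 0.00133) over 0 d. The 20 d call was lost without 0 d A, 0 d B, 0 d C or 20 d C (adjusted p up to 0.0278), and the 50 d call without 0 d C (0.0107). In all, 39 members lie in 9 runs of at least 3 neighbours. The handling of multiply mapped reads was not found in the labels or methods, and values of near-identical neighbours are uncertain.

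Late increases, between 20 and 50 d, were called by edgeR for 2 other aspartic proteases, while DESeq2 called 5 of this group higher and 1 lower. Among all tested genes edgeR called 1.40% higher here, and DESeq2 called 6.09% in either direction. Called higher by DESeq2 alone were Chr5.g05753 (4.01 on the log2 scale), Chr5.g06763 (3.48) and Chr4.g40329 (2.89). Nepenthesin-2 Chr14.g48039, named after an enzyme of pitcher plant fluid, had 0.125, 0.0964 and 0.0568 FPKM at 0 d, 0.642, 0.446 and 0.605 FPKM at 20 d and 4.92, 6.46 and 2.83 FPKM at 50 d. The stages did not overlap. The step over 20 d was 3.04 (SE 0.49, adjusted p = 0.00532), lost without 0 d A, 0 d B, 20 d A, 20 d C, 50 d A or 50 d B (up to 0.03), while that over 0 d, 5.65 (SE 0.60, adjusted p = 5.05e-05), held throughout. Asp1 Chr15.g03692 had its lowest values at 20 d. It had 1.96, 2.75 and 2.46 FPKM at 0 d, 0.856, 1.16 and 1.14 FPKM at 20 d and 4.09, 4.19 and 6.96 FPKM at 50 d, a step of 2.24 over 20 d (SE 0.39, adjusted p = 0.00749). That call held in 1 of the 9 leave-outs, the one without 20 d B, with an adjusted p of up to 0.0436 in the others, and was also lost without 20 d B and 50 d C together (0.0102).

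Expressed aspartic proteases that edgeR did not call included the second most expressed member of this group, the gene matched to aspartic proteinase alone, Chr10.g13837. It had 74.4, 58.2 and 71.8 FPKM at 0 d, 173, 98.5 and 179 FPKM at 20 d and 120, 110 and 132 FPKM at 50 d. Every cold-treated library was above every 0 d library, with a log2 fold change at 20 d of 1.22 (SE 0.30, adjusted p = 0.0124), just outside the limit, while DESeq2 called it higher. The CDR1 matches, an enzyme of disease resistance in Arabidopsis, were not tested in any of 10 genes for want of reads. Of the 54 other aspartic proteases that could not be tested, 28 had no read and the rest reached at most 0.993 FPKM in a library.

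With edgeR, all called falls were in other aspartic proteases, and most were in matches to aspartic proteinase-like protein 2. With 24 genes this name group was as large as that of SAG39 and larger than any other, and 15 of its genes were tested. It gave 3 lower calls at 20 d and none higher with edgeR or DESeq2 (1 positive value had an unadjusted p below 0.05), and 4 lower and 1 higher calls at 50 d, against 0 d. Called lower by edgeR among all tested genes were 4.52% at 20 d and 11.0% at 50 d. Chr3.g19646 had 38.1, 37.6 and 43.5 FPKM at 0 d, 9.45, 16.7 and 11.4 FPKM at 20 d and 7.48, 9.18 and 10.1 FPKM at 50 d. It fell by 1.58 on the log2 scale at 20 d (SE 0.30, adjusted p = 0.00331) and by 2.10 at 50 d (SE 0.30, adjusted p = 0.000303). Chr11.g13208 had 13.9, 20.6 and 24.3 FPKM at 0 d, 5.75, 6.02 and 6.45 FPKM at 20 d and 2.94, 3.36 and 2.71 FPKM at 50 d, with no overlap between stages. It fell by 1.61 at 20 d (SE 0.30, adjusted p = 0.00283) and by 2.65 at 50 d (SE 0.31, adjusted p = 8.38e-05) against 0 d. The 50 d calls of both genes held in every leave-out, and both 20 d calls were lost without 0 d B, 0 d C, 20 d A or 20 d C (adjusted p up to 0.0219 and 0.0181).

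The third, Chr17.g26873, was lower in expression, with 1.84, 1.97 and 2.15 FPKM at 0 d, 0.463, 0.475 and 0.579 FPKM at 20 d and 0.208, 0.0786 and 0.185 FPKM at 50 d. It fell by 3.58 at 50 d (SE 0.48, adjusted p = 0.000184) in every leave-out. The fall of 1.89 at 20 d (SE 0.43, adjusted p = 0.0084) was lost without 0 d A, 0 d B, 0 d C, 20 d A, 20 d C or 50 d A (up to 0.0414). Aspartyl protease family protein 1 Chr2.g42133 had 39.0, 27.7 and 34.2 FPKM at 0 d, 13.6, 23.0 and 18.6 FPKM at 20 d and 7.67, 9.13 and 9.28 FPKM at 50 d. Its stages did not overlap, and it fell by 1.89 at 50 d against 0 d (SE 0.30, adjusted p = 0.000506). Aspartyl protease 37 Chr15.g04270 had 26.5, 38.2 and 26.7 FPKM at 0 d, 12.3, 8.80 and 14.4 FPKM at 20 d and 12.97, 15.4 and 12.6 FPKM at 50 d. It fell by 1.29 at 20 d against 0 d (SE 0.30, adjusted p = 0.0091). That call held only without 20 d B or 50 d C among the leave-outs, with an adjusted p of up to 0.0391. DESeq2 called it lower at 50 d than at 0 d as well.

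**Figure D4:**
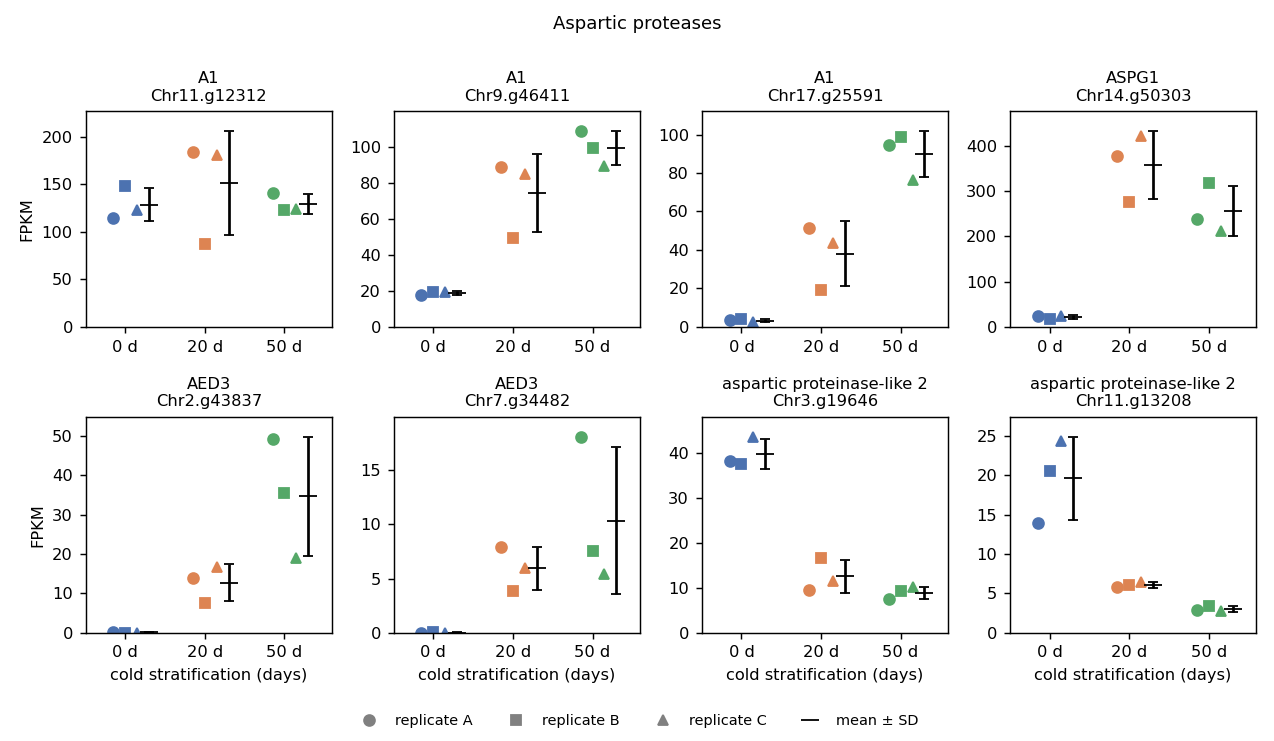
FPKM of 8 aspartic proteases by days of cold stratification. Circles, squares and triangles are replicates A, B and C, and black bars are the mean and SD of the 3 replicates, with a vertical scale of its own for each gene. ASPG1, AED3 and the A1 matches Chr9.g46411 and Chr17.g25591 are lowest at 0 d, while both genes of aspartic proteinase-like protein 2 are highest there.

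The partners of these proteases were taken from lists of names. Of 12 cysteine proteinase inhibitors (cystatins), which block papain-like enzymes, 8 were tested. Against 0 d, 12.5% of these were called at 20 d and 25.0% at 50 d, beside 12.4 and 26.6% of all tested genes. No inhibitor was called higher by edgeR or DESeq2 against 0 d, or had a positive value with an unadjusted p below 0.05 there. Called lower than at 0 d were 1 at 20 d and 2 at 50 d. The median log2 fold change of the 8 at 50 d over 0 d was -0.96, and 3 of the values were above 0. Cysteine proteinase inhibitor 12 Chr7.g34547 had 576, 370 and 573 FPKM at 0 d, 155, 219 and 180 FPKM at 20 d and 104, 96.9 and 190 FPKM at 50 d. Its 0 d libraries were above all others, and it fell by 1.90 at 50 d (SE 0.35, adjusted p = 0.00128). Cysteine proteinase inhibitor 6 Chr2.g43745 had 16.04, 17.3 and 8.67 FPKM at 0 d, 2.22, 2.503 and 1.13 FPKM at 20 d and 0.365, 0.828 and 0.244 FPKM at 50 d. It fell by 2.75 at 20 d (SE 0.57, adjusted p = 0.00516) and by 4.71 at 50 d (SE 0.66, adjusted p = 0.000235) against 0 d. The 20 d call was lost without 0 d A, 0 d B, 20 d A or 20 d C (up to 0.0298). The 2 most expressed inhibitors, given here after their values were seen, were not called by edgeR. Inhibitor 12 Chr2.g43746 had 2094, 1441 and 2033 FPKM at 0 d, 771, 1343 and 797 FPKM at 20 d and 488, 543 and 1266 FPKM at 50 d (-1.22 at 50 d over 0 d, SE 0.42, adjusted p = 0.0342). Inhibitor 6 Chr7.g34548 had 685, 479 and 562 FPKM at 0 d, 249, 569 and 269 FPKM at 20 d and 498, 440 and 1117 FPKM at 50 d (0.31 at 50 d over 0 d, SE 0.43, adjusted p = 0.59). In both, 20 d B and 50 d C were the highest of their stages.

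Storage proteins are substrates of the vacuolar enzymes. Of 13 genes named as storage proteins, 12 were tested. Of these, 1 was called higher and 1 lower at 20 d against 0 d, and 2 lower at 50 d against 20 d. At 50 d against 0 d, 1 was called higher and 4 lower. These were 16.7, 16.7 and 41.7% of the 12, beside 12.4, 1.66 and 26.6% of all tested genes. At 50 d over 20 d, 1 of the 12 values was above 0, the median was -1.62, and 6 negative and 0 positive values had an unadjusted p below 0.05. Over 0 d, 8 of the 12 values were above 0 at 20 d and 7 at 50 d, with medians of 1.30 and 0.16. Unadjusted p values below 0.05 came with 4 positive and 2 negative values at 20 d over 0 d. At 50 d over 0 d they came with 2 positive and 4 negative values. The full list by name, of which these genes are a part, also holds basic 7S globulins and plastid proteins. Of its 21 tested genes, 14.3, 9.52 and 28.6% were called in the same comparisons. Its medians over 0 d were 0.18 at 20 d and 0.10 at 50 d. Basic 7S globulin Chr12.g35468, given here after its values were seen, averaged 676 FPKM at 0 d and 14.3 FPKM at 50 d. It was called lower at both cold stages than at 0 d (-5.51 at 50 d). The most expressed, legumin A Chr5.g07108, had 2246, 791 and 1929 FPKM at 0 d, 634, 512 and 602 FPKM at 20 d and 213, 58.6 and 63.3 FPKM at 50 d. It fell by 3.81 at 50 d (SE 0.59, adjusted p = 0.000448) against 0 d. The vicilin-like gene Contig5.g17507 had 8.05, 4.00 and 10.2 FPKM at 0 d, 2.43, 1.09 and 1.20 FPKM at 20 d and 0.170, 0.135 and 0.113 FPKM at 50 d, and it fell by 5.63 at 50 d (SE 0.53, adjusted p = 3.03e-05) against 0 d. Of 12 tested vacuolar sorting receptors, 2 were called higher at 20 d, and 3 higher and 2 lower at 50 d, against 0 d. Those were 16.7 and 41.7% of the list, beside 12.4 and 26.6% of all tested genes. The RMR2 sorting receptor Chr6.g53375 had 0.328, 0.252 and 0.208 FPKM at 0 d, 4.96, 2.51 and 3.08 FPKM at 20 d and 9.36, 5.98 and 4.74 FPKM at 50 d (4.73 at 50 d over 0 d, SE 0.46, adjusted p = 3.34e-05). RMR2 Chr15.g00342 had 16.3, 13.99 and 13.5 FPKM at 0 d, 11.3, 13.5 and 12.0 FPKM at 20 d and 6.91, 6.70 and 4.61 FPKM at 50 d. It fell by 1.20 at 50 d against 0 d (SE 0.28, adjusted p = 0.00539), a call lost without 0 d A, 0 d B, 0 d C, 20 d C, 50 d A, 50 d B or 50 d C (up to 0.0193).

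Further lists of peptidases and autophagy genes, set by name, were counted in the same way. Of 34 tested genes named aminopeptidases, methionine aminopeptidases among them, 11 were called higher at 20 d and 13 at 50 d than at 0 d. These were 32.4 and 38.2% of the list, where 12.4 and 26.6% of all tested genes were called. Against 0 d, none was called lower by edgeR or DESeq2 or had a negative value with an unadjusted p below 0.05. Methionine aminopeptidase 1B Chr13.g24147 had 1.55, 1.59 and 1.94 FPKM at 0 d, 5.76, 10.4 and 5.16 FPKM at 20 d and 19.3, 15.5 and 31.8 FPKM at 50 d (3.76 at 50 d over 0 d, SE 0.42, adjusted p = 6.76e-05). Leucine aminopeptidase 2 Chr15.g03554 had 12.7, 18.2 and 24.8 FPKM at 0 d, 141, 97.8 and 132 FPKM at 20 d and 174, 145 and 98.9 FPKM at 50 d (2.97 at 50 d over 0 d, SE 0.37, adjusted p = 0.000119). Of 54 tested autophagy genes, none was called higher by edgeR or DESeq2 at 20 d against 0 d, and 4 were called lower. In that comparison 3 had a positive value with an unadjusted p below 0.05. At 50 d against 0 d, 1 was called higher and 7 lower. These calls made 7.41 and 14.8% of the list, beside 12.4 and 26.6% of all tested genes. ATG8C Chr10.g13860, the substrate type of ATG4, had 476, 325 and 411 FPKM at 0 d, 71.9, 171 and 77.5 FPKM at 20 d and 52.3, 55.3 and 151 FPKM at 50 d, and it fell by 2.17 at 50 d (SE 0.48, adjusted p = 0.00349) against 0 d. This call was lost without 0 d A, 0 d C, 50 d A or 50 d B (up to 0.0202), and 20 d B and 50 d C were the highest of their stages. Of 9 tested metacaspases, 1 was called higher and 2 lower at 20 d, and 4 higher and 2 lower at 50 d, against 0 d. These were 33.3 and 66.7% of the list, beside 12.4 and 26.6% of all tested genes. Whether the lists differ from other genes was not tested. Metacaspase-1 Chr10.g16920 had no read at 0 and 20 d and 1.49, 1.55 and 2.63 FPKM at 50 d, at least 35.05-fold higher than at 0 d. Metacaspase-1 Chr7.g32165 had 41.8, 36.2 and 30.4 FPKM at 0 d, 3.20, 8.07 and 4.34 FPKM at 20 d and 2.89, 4.22 and 5.50 FPKM at 50 d (-3.05 at 50 d over 0 d, SE 0.40, adjusted p = 0.000175).

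**Figure D5:**
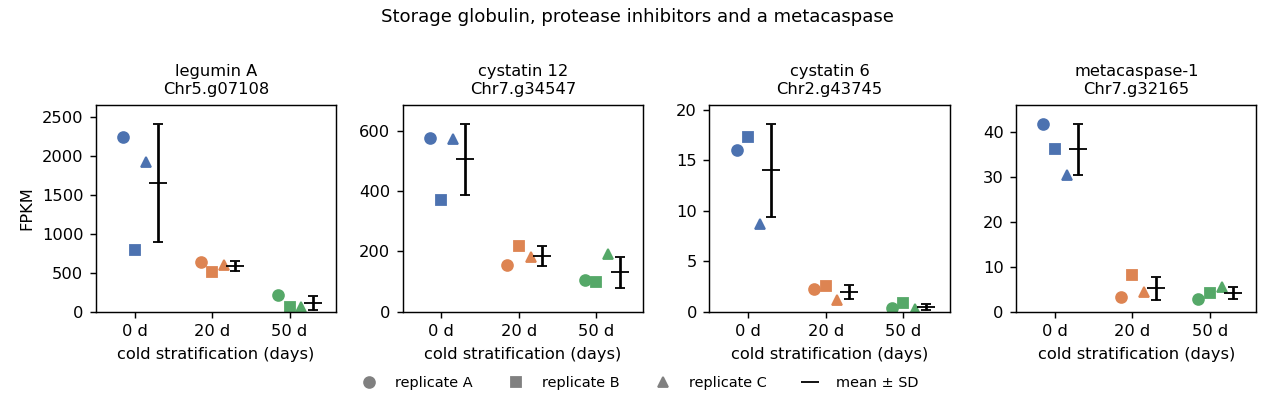
FPKM of legumin A, cysteine proteinase inhibitors (cystatins) 12 and 6 and metacaspase-1 by days of cold stratification. Circles, squares and triangles are replicates A, B and C, and black bars are the mean and SD of the 3 replicates, with a vertical scale of its own for each gene. In each of these genes every library of 50 d is below every library of 0 d.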

How the data were processed

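The authors extracted total RNA with CTAB, built NEB Next Ultra libraries and aligned the reads with HISAT2 to the wild pear genome. The counting tool, strand setting, tool versions and treatment of multiply mapped reads were found in neither labels nor methods. Read counts per gene and FPKM were used as the authors deposited them, and the library sizes behind their FPKM are scaled by size factors. Columns holding the authors' own fold changes and p-values were not used. Counts were fitted with edgeR 4.0.16 in R 4.3.3 (TMM, filterByExpr by stage, stage as the only factor, all 9 libraries). P values then measure the spread between these samples. Alternatives were DESeq2 1.42.0, RLE factors, other filters, only the 2 stages compared, limma 3.58.1 trend on log2(FPKM + 1), the replicate letter as a block, and each library left out. The edgeR fit was tested on simulated data. The members, lists and tests were chosen with earlier results of these data known. Named were the 4 expressed vacuolar-processing enzymes, the 2 highest and 3 highest called members of each group, the 4 largest rises and falls in each comparison and, in each list, the highest called gene and the called gene with the largest change between 0 and 50 d. Sequences are not shown.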

Additional observations from a re-analysis of the deposited data

How the results depend on the processing

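No member call reversed direction under any alternative. Between 20 d and 0 d, 26 members were called, and these became 16 (13 higher) when both stages had to reach a mean FPKM of 1, which by construction removes genes near 0 at 1 stage. Those 16 were 17.4% of the tested members, beside 8.88% of all genes. Without the low-count filter 2 were lower. With 20 d B and 50 d C both left out, 9 were lower at 20 d and 9 at 50 d against 0 d. At 50 d against 0 d the FPKM limit in both stages gave 20 calls, 16 of them higher, 21.7% of the tested members beside 17.6% of all genes. DESeq2 called 45 members there, 10 of them lower, 48.9% beside 34.9% of all genes. The 5 calls at 50 d against 20 d became 14 with DESeq2 (11 higher, 3 lower), 15.2% of the tested members beside 6.09% of all genes. With limma-trend they became 10 (all 10 higher), 10.9% beside 3.45% of all genes. When only these stages were fitted they became 0, with 29 of 88 tested members at an unadjusted p below 0.05, and 0 genes were called in the whole table. Leaving out each library gave 14 (without 0 d C) to 30 (without 20 d B) calls at 20 d against 0 d (14 to 25 higher, 0 to 5 lower), beside 4.21 and 23.7% of all genes. It gave 0 (without 20 d A, 20 d C or 50 d B, with 27, 31 and 27 members at an unadjusted p below 0.05) to 6 (without 20 d B) calls at 50 d against 20 d (0 to 6 higher, 0 lower). At 50 d against 0 d it gave 26 (without 0 d C) to 45 (without 20 d B) calls (22 to 37 higher, 4 to 8 lower), beside 16.7 and 34.0% of all genes. RLE factors and no FPKM limit kept the counts within 1.5 times. The cause of these shifts was not tested.

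Deviations of same-letter libraries correlated by -0.56 to 0.55, and those of libraries with different letters by -0.62 to 0.72. As these ranges overlap, a pairing by replicate letter was neither shown nor excluded. With the letter as a replicate block, 15 members were called at 20 d against 0 d (15 higher, 0 lower), 0 at 50 d against 20 d (0 higher) and 32 at 50 d against 0 d. These were 16.3, 0.00 and 34.8% of the tested members, beside 4.56, 0.176 and 18.2% of all genes. Unadjusted p values below 0.05 then numbered 46, 27 and 63. With 3 libraries per stage, a missing call does not show a lack of change, and 92 members were too low to test.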
